A study of Homo sapiens with 8 samples.

Results

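The joint loss of mir-141 and mir-200c was followed in the 2 double knockout clones of the series, each compared with wild-type cells of its own experimental set. With their wild types they make up 4 of the 8 samples: wild-type SK-BR-3 cells and double knockout clone 55 in set 1, and wild-type cells and double knockout clone 61 in set 2. The remaining samples are single knockouts of mir-141 (clone 23 in set 1) or mir-200c (clone 11 in set 1), with 1 further clone of each in set 2. SK-BR-3 cells are a long-established line from a human breast cancer with extra copies of the receptor gene ERBB2, and the deletions were made with TALENs, designed nuclease pairs. The question stated for the series is how mRNA levels across the genome differ between knockout and wild-type cells. Every row of the deposited table was used, which is 9245 mRNA entries in either double knockout.

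Each value is a log2 ratio, made by the authors, of the mRNA in a clone to that in the wild-type cells sequenced with it, so 1 stands for a doubling of mRNA and −1 for a halving. A double knockout is 1 clone per set, and a clone cannot be told apart from the loss of the microRNAs within a set. Ratios carry neither levels nor read numbers, so the depth behind them is unknown. Set 1 is described first and in most detail, for the reason given below. With 1 clone against 1 wild type it has no replicate error, and a fold of fixed size (a log2 ratio beyond 1) takes the place of a test. Where 3 ratios stand together, they belong to the single knockout of mir-141, that of mir-200c and the double knockout, in that order, all of set 1 and over 1 shared wild type.

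mir-141 and mir-200c belong to the mir-200 family, small RNAs abundant in epithelial cells and best known for holding down inducers of the mesenchymal state. A microRNA recognises a message mainly through its seed, bases 2 to 8 of the mature strand, which pairs with sites in the 3′ untranslated region (UTR), and a paired message is repressed or degraded. The family has 2 kinds of seed, 1 for mir-141 and mir-200a and the other for mir-200c, mir-200b and mir-429, and their known target sets are largely separate. The double knockout removes 1 gene for each kind of seed.

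The mature strands are shown because these seeds define the predicted targets examined below. They were read from RefSeq (GRCh38.p14), 5′ to 3′, with the seed in capitals. The targeted pair is encoded on the plus strand of chromosome 12, mir-200c-3p at chr12:6963742-6963764 and mir-141-3p at chr12:6964155-6964176. The other members of the family lie on chromosome 1 and were not targeted.
hsa-miR-141-3p: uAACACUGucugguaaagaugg
hsa-miR-200a-3p: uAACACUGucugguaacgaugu
hsa-miR-200c-3p: uAAUACUGccggguaaugaugga
hsa-miR-200b-3p: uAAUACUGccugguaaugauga
hsa-miR-429: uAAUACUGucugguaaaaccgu
The seeds of hsa-miR-141-3p and hsa-miR-200a-3p are identical, as are those of hsa-miR-200c-3p, hsa-miR-200b-3p and hsa-miR-429. A double knockout therefore still has the chromosome 1 genes for both seeds. The levels of the microRNAs were not analysed here, so the deletions were not checked in these libraries.

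Sites of 8 bases, which match the full seed and are followed by an A, read CAGTGTTA for mir-141 and CAGTATTA for mir-200c. Shorter sites of 7 bases read CAGTGTT or AGTGTTA for mir-141 and CAGTATT or AGTATTA for mir-200c, and they overlap the longer ones. On the transcript strand of 9207 annotated 3′ UTRs, 26.0% held a site of either length for mir-141 and 24.1% for mir-200c. The longer sites were present in 5.43% and 4.8%. The stretches below, taken from GENCODE 29 transcripts with the site in capitals, come from 4 genes whose values are described below. LHFP and DOCK4 hold a long site for both seeds, and CFL2 and QKI, published targets of the family, hold 2 long sites each for mir-200c.
LHFP, mir-141 site: gctagtagaaaCAGTGTTAtgt
LHFP, mir-200c site: catttaaaataCAGTATTAtca
DOCK4, mir-141 site: acattataaatCAGTGTTAttt
DOCK4, mir-200c site: atcaatacagaCAGTATTAaat
CFL2, first mir-200c site: tcaacttttttCAGTATTAttt
CFL2, second mir-200c site: ggaggtgtctgCAGTATTAtta
QKI, first mir-200c site: gccttggttctCAGTATTAtca
QKI, second mir-200c site: tttttttctgaCAGTATTAtgt
The sites of LHFP begin at bases 419 and 611 of a 3′ UTR of 1044 bases. Those of DOCK4 begin at bases 1966 and 878 of 2164. A match of letters is a description and not a measured binding site.

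The value columns of the sets do not follow the gene names equally well. Protein complexes whose genes are usually expressed together show this. The 78 cytosolic ribosomal protein genes had an SD of 0.156 across members in the double knockout of set 1, where all rows had 0.397. In set 2 the same 78 names had an SD of 0.478, where all rows had 0.456. The 37 proteasome genes had 0.158 in set 1 and 0.323 in set 2, and the 62 genes of mitosis and the kinetochore had 0.230 and 0.670. Set 1 values of a complex therefore lay closer together than those of all genes, whereas set 2 values beside the same names did so little or not at all.

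Across all rows, the Spearman correlation between clone 55 and clone 61 was 0.0137 on the same row. It was higher when the set 2 value was read a few rows further down, with 0.0529 at 4 rows, 0.046 at 3 rows and 0.0455 at 5 rows. Offsets of 21 to 1000 rows in either direction gave −0.0381 to 0.0367. In 18 consecutive windows of 500 rows the best offset within 20 rows lay between 13 rows above and 14 rows below, with correlations of 0.105 to 0.271. Because each of these is the highest of 41 offsets, some height comes from the choice alone. Genes are not independent, and these coefficients describe the columns.

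**Figure D1:**
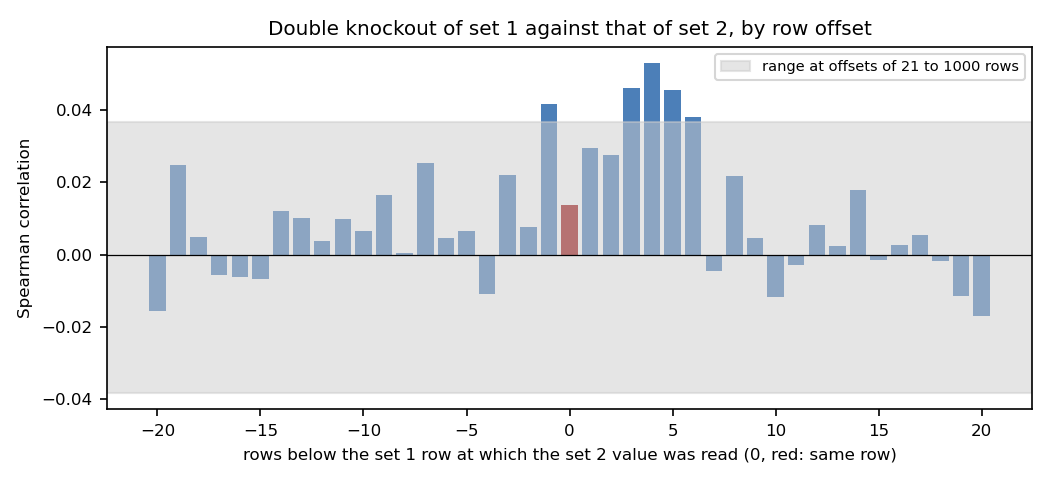
Spearman correlation across genes between the double knockout ratios of set 1 and those of set 2 (vertical axis), by the number of rows by which the set 2 value was displaced (horizontal axis, 0 in red), with the range at offsets of 21 to 1000 rows shaded. The correlation was 0.0137 at 0 and 0.0529 at 4 rows, and 5 of 41 offsets lay above the shaded range.

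The genes furthest from 0 show the same feature one by one. OLFM4, a secreted glycoprotein, had 4.43 in set 1, and set 2 lists 0.16 beside its name but 6.97, the highest value of that column, 4 rows below it beside ANKZF1. MYL9, a myosin regulatory light chain, had 3.01 in set 1 and is listed at 0.26 in set 2, with 3.45 standing 2 rows above. LCN2, the iron-carrier protein lipocalin 2, had 2.48 in set 1 and −0.23 in set 2, with 2.79 on the next row. IGFBP2, a binding protein of insulin-like growth factors, had −3.27 and 0.57, with −2.87 standing 3 rows above. These neighbours were picked after their values were seen, as the furthest value of the same sign within 8 rows. Such a value beyond 2 in size was found for 5 of the 12 lowest genes of set 1, or 41.7%, and for 4 of the 12 highest, or 33.3%. Among all rows it was found for 3.18% of those below 0 and 5.63% of those above 0. No set 2 value was moved to another gene, and whether the rows are displaced was not tested. Set 2 is given below as listed, and a mean or test over both sets may combine different genes.

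A second property concerns whole chromosomes, in clone 55 and in part in the single knockouts of set 1. Ratios of clone 55 on chromosome 18 had a median of 0.26 over 118 genes, with 74.6% above 0, where 46.3% of all rows were. On chromosomes 13 and 22 the medians were both −0.28 over 157 and 246 genes, with 24.2% and 15.4% above 0. Medians of the other chromosomes lay between −0.06 and 0.06. The single knockouts had medians of 0.19 (mir-141) and 0.03 (mir-200c) on chromosome 18, −0.13 and −0.02 on chromosome 13, and −0.10 and −0.34 on chromosome 22. The shifts of chromosomes 18 and 13 were present in the mir-141 clone at a smaller size. That of chromosome 22 was larger in the mir-200c clone than in clone 55.

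Within these chromosomes the values ran in blocks. The 20 neighbouring genes from MOCOS to MEX3C on chromosome 18 had a median of 0.94, with 19 of 20 above 0, against 0.63 and 0.11 in the mir-141 and mir-200c knockout. The block from NEDD4L to CTDP1 had 0.87, with 20 of 20 above 0, against 0.53 and −0.02. Among its genes ZADH2 had 1.68 and MALT1, a signalling protease, 1.25. The lowest blocks were ATP6V1H to RRS1 on chromosome 8 (−0.59), PSPC1 to CDK8 on chromosome 13 (−0.50), GMPR2 to ARHGAP5 on chromosome 14 (−0.49) and MYH9 to H1F0 on chromosome 22 (−0.46). Of 8779 such windows, 339 had a median beyond 0.3 in size in set 1 and 5 in set 2 as listed. The windows advance gene by gene and overlap, so these counts are not numbers of separate regions. DNA copy number was not measured in these files, and its part was not tested. A gene in one of the blocks above is named with its chromosome below. Smaller high blocks were GLB1 to CX3CR1 on chromosome 3 (0.33) and TNS4 to CNP on chromosome 17 (0.32). The latter holds the keratin genes KRT16, KRT17, KRT19 and KRT23.

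**Figure D2:**
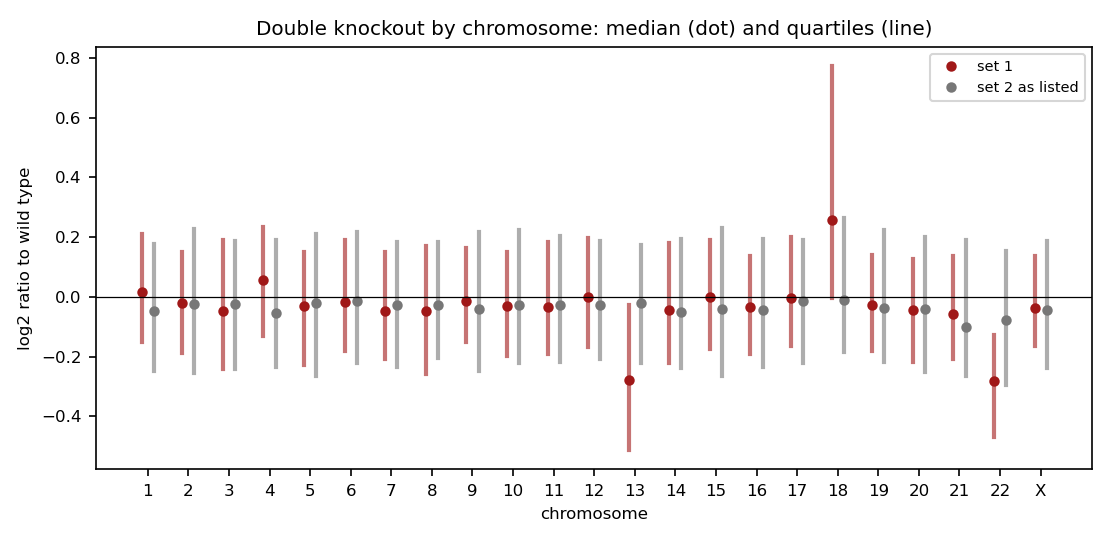
Median (dot) and quartiles (line) of the log2 ratio to wild type over the genes of each chromosome, for the double knockout of set 1 (red) and of set 2 as listed (grey). In set 1, chromosome 18 lay at 0.26 and chromosomes 13 and 22 at −0.28, while the other medians lay between −0.06 and 0.06.

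The defining markers of the line lay near 0 in clone 55. ERBB2 had −0.14, its amplified neighbour GRB7 had 0.03, and the epithelial adhesion molecule EPCAM had −0.05. The luminal keratins KRT7, KRT8, KRT18 and KRT19 had −0.01, −0.19, 0.21 and −0.24. Over the 19 measured genes of the ERBB2 amplicon the median was 0.01, and 0 of them passed a ratio of 1 in either direction, where 1.53% of all rows lay above 1 and 0.746% below −1. Genes beside the deleted microRNAs were likewise close to 0: C12orf57 had 0.12, PTPN6 0.14 and ATN1 0.06, and 14 neighbours in all ranged from −0.20 (ZNF384) to 0.31 (ING4). Set 2 lists PTPN6 at 1.18 and ATN1 at −0.93.

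Markers of other cell types were few in the table. Of the fibroblast markers, COL5A2 had 1.28, but COL1A1 had −0.15, COL5A1 −0.09 and FBLN1, on chromosome 22, 0.06. Of the endothelial markers, CDH5 had 1.34, ESAM 0.51 and ENG 0.13, and of the blood cell markers CD68 had 0.40, LCP1, on chromosome 13, −0.44 and CORO1A −0.48. These are ratios and do not say whether a marker was abundant or near 0 in either library, and the part of other cell types in the results was not tested.

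In clone 55, 141 genes lay above a log2 ratio of 1 (1.53% of rows) and 69 below −1 (0.746%). Most genes were near their wild-type level, with 61.9% of rows within 0.25 of 0, a median of −0.0272 and 46.3% above 0. Beyond 2 in size lay 15 genes on the high side and 11 on the low side. The nearest genes on either side of the threshold were PLXDC2 (1.006) and ABCC11 (0.995) above 0, and HYAL1 (−1.007) and ZNF80 (−0.999) below 0. The single knockouts had 54 (0.584%) and 52 (0.562%) genes for mir-141 and 157 (1.7%) and 98 (1.06%) genes for mir-200c past the same ratios. Clone 55 thus had more genes beyond 1 than the mir-141 clone and fewer than the mir-200c clone of its set. Of its 141 high genes 13 lay on chromosome 18, which is 11.0% of the genes measured there.

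The genes chosen at these thresholds had smaller ratios in the single knockouts. The median of the 141 high genes was 1.26 in clone 55, 0.75 in the mir-141 clone and 0.88 in the mir-200c clone. That of the 69 low genes was −1.29, −0.73 and −0.78. The choice was made on clone 55, so a smaller value elsewhere is built in. Set 2 lists 64 of the 141 high genes above 0, where 45.9% of all its rows are above 0, and 4 of them above 1, where 2.42% of all rows are. Of the 69 low genes it lists 37 below 0 and 0 below −1 (0.919% of all rows). Beside the names of these genes, clone 61 therefore looked much like the rest of its column.

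FBP1, a fructose bisphosphatase that serves gluconeogenesis (chromosome 9, 94603133 to 94640249), stood furthest from its wild-type level. Its ratios were −6.08, −7.01 and −8.51, and set 2 lists it at 0.04. GATA2, a zinc finger transcription factor, had −2.64, −4.09 and −3.28. MUC5B, a gel-forming mucin, had −2.19, −1.98 and −3.72. These 3 were low in every set 1 clone. BASP1, a membrane-associated signalling protein, and SPDYC, a cell cycle regulator, had −2.07 and −2.27 in clone 55 and were at −1.28 or below in both single knockouts.

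Other low genes resembled only 1 of the single knockouts. KHNYN, on chromosome 14 in the low block named above, had −4.68, 0.91 and −3.12. PARVB, an actin-binding parvin of focal adhesions on chromosome 22, had −3.82, 0.22 and −2.24. NSMAF, an adaptor of neutral sphingomyelinase in the low block of chromosome 8, had −3.57, −1.0 and −3.62. These 3 were low in the mir-141 and double knockout and stood at −1.0 or higher in the mir-200c clone.

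Further low genes were far lower in clone 55 than in either single knockout. IGFBP2 (chromosome 2, 216632828 to 216664436) had −0.62, −0.90 and −3.27. The purinergic channel gene P2RX5 had −1.75, −0.59 and −2.86, and the phospholipid flippase gene ATP11A, on chromosome 13, had −0.61, −0.84 and −1.91. SNRPN had 0.03, 0.92 and −3.2, but its transcript overlaps that of SNURF and the value is uncertain.

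At the high end, WDR20, a WD-repeat partner of deubiquitinases (chromosome 14, 102139503 to 102224847), had 4.76, 5.11 and 4.51, nearly the same in all set 1 clones. OLFM4, on chromosome 13, had 2.76, 2.98 and 4.43. The ecto-nucleotidase NT5E, also known as CD73, had 1.71, 3.39 and 2.45. The secreted BMP antagonist NBL1 had 3.2, 1.25 and 2.30. A value shared by all 3 clones is also what an unusual level in their 1 wild type would give, and the ratios cannot tell these apart.

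CYP4B1, a cytochrome P450 (chromosome 1, 46757838 to 46819413), stood out with 0.84, 1.29 and 3.04. LCN2 had 0.64, 1.53 and 2.48. MYL9 had 0.79, 3.2 and 3.01, close to the mir-200c clone, while CGA, the common subunit of glycoprotein hormones, had 2.41, −0.01 and 2.06, close to the mir-141 clone. STAC2, an adaptor of calcium channels, had 1.30, −0.79 and 2.17. The histone gene HIST1H2AD (4.35), FAM86B2 (3.15) and the basal keratin KRT17 (2.07) have near-identical copies and are uncertain.

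**Figure D3:**
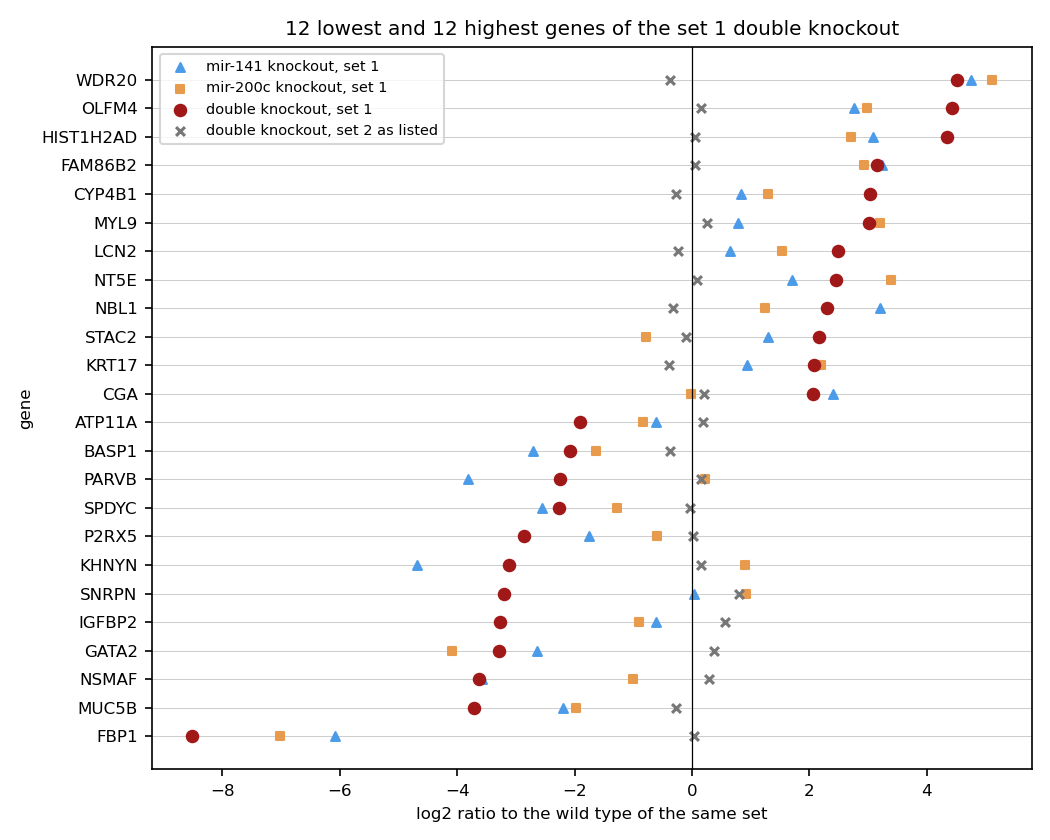
Log2 ratio to the matching wild type (horizontal axis) for the 12 lowest and 12 highest genes of the double knockout of set 1 (red circles), with the single knockouts of set 1 (blue triangles, mir-141, and orange squares, mir-200c) and the set 2 double knockout as listed (grey crosses). FBP1 is lowest at −8.51 and WDR20 highest at 4.51, and the grey crosses stay near 0.

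Genes past the threshold in clone 55 while within 0.3 of 0 in both single knockouts numbered 9, or 0.0973% of rows. The lowest was WLS, the carrier that Wnt proteins need for secretion (chromosome 1, 68098473 to 68233120), with −0.14, 0.27 and −1.73. COA6, an assembly factor of cytochrome c oxidase, had −0.24, 0.08 and −1.11. C6orf226 had −1.05 in clone 55, and RNASEH2B, a subunit of ribonuclease H2 on chromosome 13, had −1.02. The histone gene HIST1H2AG (−1.14) is uncertain because of its copies. Just inside the threshold were MTHFD1L, a mitochondrial folate enzyme (−0.93), GMPR, guanosine monophosphate reductase (−0.92), and the amino acid transporter gene SLC7A8 (−0.89).

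On the high side the gene furthest out was INSL4, a placental insulin-like peptide, with 0.07, 0.18 and 1.59. ICAM1, an adhesion molecule for leukocytes (chromosome 19, 10270835 to 10286615), had 0.12, 0.20 and 1.26. The drug and bile salt exporter ABCC3 had 0.18, 0.26 and 1.14. SOCS6, an inhibitor of cytokine and receptor signalling on chromosome 18, had 0.26, 0.00 and 1.05. Below the threshold followed the hair keratins KRT83 (0.97, uncertain because of its copies) and KRT85 (0.92), the collagen gene COL12A1 (0.96) and CCDC159 (0.91). Set 2 lists INSL4 at −0.56, ICAM1 at 0.18, ABCC3 at −0.70 and WLS at −0.01. The selection used the set 1 ratios of all 3 clones, so these values describe it and do not test it.

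Predicted targets of the deleted microRNAs lay slightly higher in clone 55 than other genes. Genes with sites of 7 or 8 bases for both seeds (1042) had a median of 0.0376, with 55.2% above 0. Those with sites for mir-141 only (1348) had −0.000516, with 49.9% above 0, and those with sites for mir-200c only (1181) had −0.00382, with 49.4%. The 5636 genes with neither had −0.0481, with 43.2% above 0. The mean of genes with both kinds of site was 0.0925 above that of genes with neither, and the means of those with 1 kind were 0.0449 (mir-141) and 0.0551 (mir-200c) above it. The differences are small beside the SD of 0.397 across genes, and genes are not replicates, so no test was made.

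The same difference for genes with both kinds of site was 0.017 in the mir-141 clone and 0.0428 in the mir-200c clone. For mir-141 sites only it was 0.0144 in the mir-141 clone, and for mir-200c sites only it was 0.0429 in the mir-200c clone. In the double knockout all 3 classes had higher values than these, before UTR length was taken into account. Whether it differs from the single knockouts beyond the spread between clones was not tested, because set 1 has 1 clone of each kind. Set 2 as listed gave 0.0262 for both kinds of site, with a median of −0.0229 against −0.0365 for neither.

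The number of sites showed a similar gradation. From 0 to 1, 2, 3 and 4 or more sites of either kind the median in clone 55 was −0.0481, −0.015, 0.0361, 0.0489 and 0.0388. The share above 0 was 43.2%, 47.9%, 54.4%, 56.8% and 56.4%. Genes with more sites have longer 3′ UTRs, with median lengths of 778, 1939, 2924.5, 3665 and 5757 bases. Compared within 10 bins of UTR length, the difference for genes with both kinds of site was 0.0557 in place of 0.0925, and that for genes with any site was 0.031 in place of 0.0622. UTR length therefore moved together with the ratio, and the difference was smaller among genes of like length. Within these bins the difference for both kinds of site was 0.0109 in the mir-141 clone and 0.0231 in the mir-200c clone. For mir-141 sites only it was 0.0155 in clone 55 and 0.00919 in the mir-141 clone. For mir-200c sites only it was 0.0268 in clone 55 and 0.0279 in the mir-200c clone, so this class was not higher in the double knockout.

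**Figure D4:**
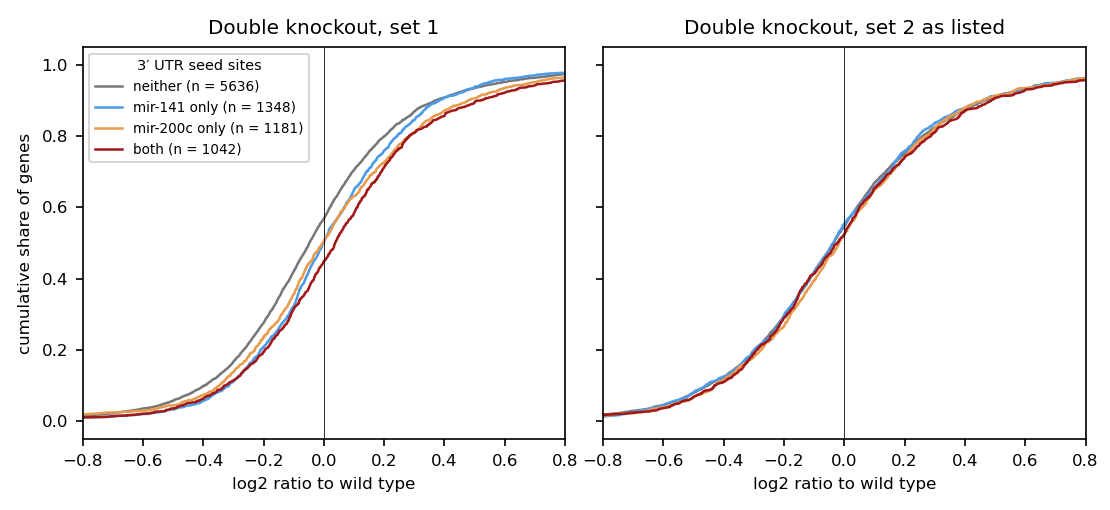
Cumulative share of genes (vertical axis) by log2 ratio to wild type (horizontal axis, drawn from −0.8 to 0.8) for genes with sites of both microRNAs, of 1 of them or of neither, in the double knockout of set 1 (left) and of set 2 as listed (right). In set 1 the curve of genes with both kinds of site (median 0.0376) lies to the right of that with neither (−0.0481), and in set 2 the curves nearly coincide.

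Genes with the longer, 8-base sites for both seeds numbered 53. Of these 34 (64.2%) lay above 0, where 46.3% of all rows did, with a median of 0.18, 3 above 1 and 0 below −1. LHFP, a tetraspan membrane protein gene on chromosome 13 (39209116 to 39603528, minus strand), was highest with 0.88, 1.58 and 1.78, although its chromosome had a negative median. DOCK4, an exchange factor that activates the small GTPase Rac (chromosome 7, 111726110 to 112206411, minus strand), had 0.12, 0.40 and 1.16. Both had their highest ratio in the clone that lacks both microRNAs, and their sites are printed above. They were named for a high ratio in that clone, so a lower value in the others is partly built in. SMAD2, a transducer of TGF-beta signals, had 0.90, 0.49 and 1.10, and GATA6, a transcription factor, had 0.36, 0.89 and 0.67. Both of these lie on chromosome 18, whose measured genes had medians of 0.19, 0.03 and 0.26. Genes of that chromosome with and without sites were not compared. The 3′ UTR searched for SMAD2 was 32870 bases long, where the median for genes with both kinds of site was 3749. Its sites were not weighed against that length. SOWAHC had 0.76 and the zinc transporter gene SLC30A7 had 0.73. In set 2 these 6 are listed between −0.35 (GATA6) and 0.28 (LHFP).

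Of 41 measured genes published as mir-200 targets, 30 lay above 0, where 46.3% of all rows did, and the median was 0.14, where that of all rows was −0.0272. The list had medians of −0.02 and 0.09 in the mir-141 and mir-200c clones. Past a ratio of 1 was only FN1, the matrix protein fibronectin, with 1.17, 1.23 and 1.12. The actin regulators came next. RND3, which loosens actin stress fibres, had 0.02, 1.08 and 0.88. CFL2, the actin-severing protein cofilin 2 (chromosome 14, 34706769 to 34714823, minus strand), had 0.10, 0.90 and 0.75. QKI, an RNA-binding splicing regulator (chromosome 6, 163414000 to 163578596, plus strand), had −0.19, 0.93 and 0.67.

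CRTAP, a collagen-modifying factor, had 0.04, 0.79 and 0.62. In these 4 genes clone 55 lay close to but below the mir-200c clone, and the mir-141 clone lay between −0.19 and 0.10. FHOD1, a formin that assembles actin filaments, differed from them with 0.00, −0.01 and 0.54, and so did NOTCH1, the receptor, with −0.09, −0.03 and 0.41. At the low end were KLF5, a transcription factor on chromosome 13 (−0.71, −0.47 and −0.73), and RIN2, a Rab5 effector (−0.27). ZEB1, ZEB2, CDH1 and VIM were not analysed here. Without the 3 targets on chromosomes 13 and 22 the count was 28 of 38 above 0 and the median stayed at 0.14. Set 2 as listed had a median of −0.03 over the same 41 names, with 17 above 0.

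Of 40 listed mesenchymal markers only 16 were in the deposited rows, where 78 of 81 cytosolic ribosomal protein genes were. NF-kB targets (14 of 30) and interferon-stimulated genes (21 of 50) were also covered in part. If rows were kept for being high in a clone, a high median would be partly built in, and this was not tested. Mesenchymal markers had the highest median of the lists examined with 5 or more members, 0.76 over these 16 genes. Of these 12 lay above 0, 5 above 1 and 0 below −1. Shares over all rows were 46.3% above 0, 1.53% above 1 and 0.746% below −1, the background for this and later lists. Those above 1 were MYL9, the collagen gene COL5A2 (0.91, 0.69 and 1.28), CTGF, a secreted matricellular protein (0.52, 1.48 and 1.23), FN1 and FSTL1, a secreted glycoprotein (0.25, 1.01 and 1.06). Not all members were high. The smooth muscle protein TAGLN had −0.22, 2.08 and −0.41, tropomyosin TPM1 had −0.59, 0.84 and −0.53, and the fibronectin receptor subunit ITGA5 had −0.69, 0.44 and −0.61. In these 3 genes clone 55 lay beside the mir-141 clone and far below the mir-200c clone. The median of the list was 0.31 in the mir-141 and 0.89 in the mir-200c knockout. None of the 16 lies on chromosome 13, 18 or 22, and set 2 as listed had a median of −0.28.

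Epithelial genes were not low in return. Of 46 genes of adhesion and junctions 31 lay above 0, with a median of 0.10, 2 above 1 and 0 below −1. The median was 0.02 in the mir-141 and 0.10 in the mir-200c knockout. Over all rows the shares above 0, above 1 and below −1 were 46.3%, 1.53% and 0.746%. CLDN1, a tight junction claudin, had −0.01, 1.53 and 2.04. CEACAM6 had 1.05 and is uncertain because related genes share its sequence. The other claudins measured near the centre of the list included CLDN7 (0.20), CLDN4 (0.12) and CLDN3 (0.10), and the desmosomal protein DSP had 0.00.

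Keratins had a median of 0.65 over 17 genes, with 13 above 0, where 46.3% of all rows were. The single knockouts had medians of 0.16 (mir-141) and 0.23 (mir-200c). KRT17 (2.07), KRT23 (1.01), KRT16 (0.97) and KRT14 (0.95) were among the high ones, as were the hair keratins below. KRT80 had 0.65 and KRT6B, uncertain because of its copies, 0.43, while the luminal keratins named above stayed within 0.25 of 0. KRT16, KRT17 and KRT23 lie in the chromosome 17 block named above. KRT17 is uncertain, as said above. KRT81, KRT83 and KRT86, hair keratins with near-identical copies, had 0.80, 0.97 and 0.87 in clone 55 and −0.83, −0.27 and −0.48 in the mir-200c clone. Set 2 lists the keratins at a median of −0.05.

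Matrix and adhesion genes numbered 31, of which 25 lay above 0, 6 above 1 and 1 below −1, with a median of 0.25. The mir-141 and mir-200c knockouts had medians of 0.09 and 0.28, so clone 55 was not above the mir-200c clone. Over all rows the shares above 0, above 1 and below −1 were 46.3%, 1.53% and 0.746%. THBS1, thrombospondin 1, had 1.21, 0.86 and 1.73. PLAUR, the urokinase receptor, had 0.93, 1.05 and 1.64, and ITGB6, an integrin subunit that activates latent TGF-beta, had 0.50, 0.96 and 1.38. LAMA3, a laminin chain on chromosome 18, had 0.09, 0.59 and 1.04. In each of these 4 clone 55 had the highest ratio of set 1, which their choice for passing 1 in that clone favours. Of the other members above 1, COL5A2 (0.91, 0.69 and 1.28) was also highest in clone 55. FN1 (1.17, 1.23 and 1.12) was lowest there. COL18A1, a basement membrane collagen, was the low exception with −1.17, −0.05 and −1.24. The integrin subunits ITGA3 (0.86) and ITGA2 (0.80) lay under the threshold.

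Among 65 actin, myosin and focal adhesion genes 43 lay above 0, where 46.3% of all rows did, with a median of 0.09. The actin crosslinker FLNA (1.08) and MYL9 lay above 1 and PARVB below −1, and the capping protein CAPG had −0.95. Of this list 8 lie on chromosomes 13, 18 and 22, and without them 39 of 57 lay above 0 with a median of 0.10. Targets of the coactivator YAP, which responds to cell shape and tension, had a median of 0.24 over 22 genes, against −0.01 and 0.21. Above 1 lay 4 of them, where 1.53% of all rows did. These were NT5E, the caveolar protein CAV1 (1.07, 0.68 and 2.00), the annexin ANXA3 (0.24, 1.63 and 1.34) and CTGF. YAP1 itself had 0.06.

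Genes of the TGF-beta and BMP response had a median of 0.36 over 22 members, with 18 above 0, where 46.3% of all rows were. The single knockouts had medians of 0.15 (mir-141) and 0.29 (mir-200c). NBL1 and the signal transducer SMAD3 (0.45, 0.82 and 1.03) lay above 1. The type I receptor gene TGFBR1 had 0.64 and the feedback regulators BAMBI, PMEPA1 and SKIL had 0.75, 0.73 and 0.68. The BMP-responsive inhibitors of differentiation were split, with ID1 at −0.45, ID2 at −0.77 and ID3 at 0.19. Of 20 Wnt and Notch genes only DKK1, a secreted Wnt antagonist, passed 1, with 1.26, 1.90 and 1.34.

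Immediate early genes, the first to answer growth and stress signals, lay above 0 in 21 of 23 cases, where 46.3% of all rows did. Their median was 0.42 against 0.14 and 0.20 in the mir-141 and mir-200c knockout. The AP-1 subunit gene JUN had 0.68, 1.83 and 1.48, KLF2 had 0.85, 0.76 and 1.40, and ATF3, a stress-induced factor, had 0.05, 1.70 and 1.13. Several genes driven by ERK signalling lay below 0 in the mir-200c clone and above 0 here. ETV4 had 0.30, −1.07 and 0.52, EGR1 had 0.51, −1.45 and 0.26, and SPRY4 had 0.14, −0.38 and 0.58. The feedback inhibitor SPRY1 was lowest at −0.40. Set 2 as listed had a median of 0.02.

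NF-kB target genes lay above 0 in 13 of 14 cases, where 46.3% of all rows did, with a median of 0.38 against −0.03 and 0.32. LCN2 and ICAM1 passed 1, and the chemokine CCL2 (0.95), the cytokine TNF (0.81) and the feedback inhibitor TNFAIP3 (0.52) followed. The lists overlap, since IER3 (0.61) also stands among the immediate early genes. Interferon-stimulated genes had a median nearer to that of the mir-141 clone. It was 0.10 over 21 genes in clone 55, 0.12 in the mir-141 clone and 0.69 in the mir-200c clone. GBP1, a guanylate-binding protein, had −0.01, 2.50 and 1.68, whereas ISG15, a ubiquitin-like modifier, had 0.15, 0.95 and −0.24. Genes of antigen presentation had a median of 0.28 over 16 members with 0 past 1, led by the peptidase ERAP1 (0.95) and the immunoproteasome subunit PSMB8 (0.78). Their median was 0.04 in the mir-141 clone and 0.40 in the mir-200c clone, higher than in clone 55.

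**Figure D5:**
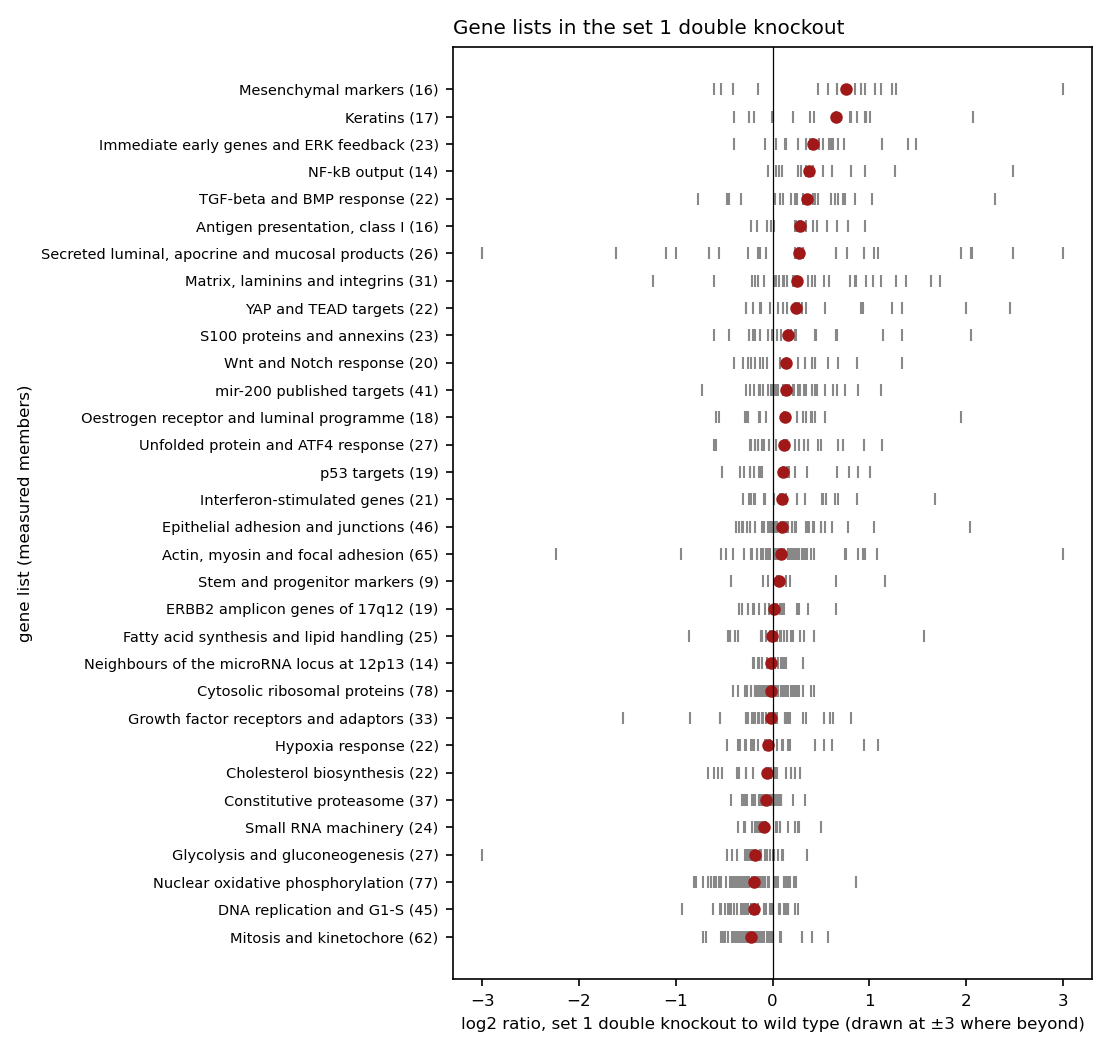
Log2 ratio to wild type in the double knockout of set 1 (horizontal axis, values beyond 3 drawn at 3) for the measured members of each gene list with 5 or more members (grey ticks) and the median of the list (red dot), lists ordered by median. Mesenchymal markers (0.76) and keratins (0.65) are at the top, and DNA replication (−0.19), respiratory chain (−0.19) and mitosis genes (−0.22) at the bottom.

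Secreted products of luminal, apocrine and mucosal cells spread furthest, with an SD of 1.69 over 26 genes, 7 above 1 and 4 below −1. Over all rows these shares were 1.53% and 0.746%. The apocrine protein PIP had 2.07, 1.69 and 1.95. The antimicrobial protein psoriasin, S100A7, had 1.75, −0.43 and 2.05, and the protease inhibitor SERPINA3 had 0.00, 0.96 and 1.09. With OLFM4, LCN2, CGA and CEACAM6 they make up the high side. On the low side stood MUC5B, IGFBP2, the protease inhibitor cystatin C (CST3, −1.10) and mammaglobin A (SCGB2A2, −0.10, 0.33 and −1.62), the last uncertain because of a close copy. The family thus had members at both ends of the column rather than a common direction. Among 23 S100 and annexin genes S100A3 had 0.08, −1.55 and 1.14, higher here than in either single knockout.

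Growth factor receptors and adaptors were balanced, with 16 of 33 above 0, where 46.3% of all rows were, and a median of −0.02. FGFR3, a fibroblast growth factor receptor, was the only one past the threshold, with −0.52, −1.20 and −1.55. FGFR1, a receptor of the same family, had −0.85. Oestrogen receptor and luminal genes had a median of 0.13 over 18, with PIP above 1. The secretory cell factor XBP1, on chromosome 22, had −0.59, and TFF1, an oestrogen-induced trefoil peptide, had −0.18, −2.17 and −0.55. Among p53 targets the cell cycle inhibitor CDKN1A had 1.01, and in a small list of stem and progenitor markers ALDH1A3, a retinal-oxidising enzyme, had 1.16.

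Genes of cell division lay slightly low with 0 members past 1. Of all rows 46.3% lay above 0, 1.53% above 1 and 0.746% below −1. Of 62 mitosis and kinetochore genes 56 lay below 0, with a median of −0.22 against −0.06 and −0.25 in the mir-141 and mir-200c knockout. The kinetochore protein NDC80, on chromosome 18, had −0.72 and the spindle protein HMMR −0.69, and the kinetochore motor CENPE was a high exception at 0.57. Of 45 DNA replication genes 33 lay below 0, with a median of −0.19 against −0.02 and −0.25. POLE2, a polymerase epsilon subunit, had −0.94, and CDC45, part of the replicative helicase on chromosome 22, had −0.62. Without chromosomes 13, 18 and 22 the counts were 54 of 60 and 30 of 41 below 0. The median of all rows was −0.0272, so these groups were lower than the column as a whole by less than 0.2.

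Nuclear genes of the respiratory chain and ATP synthase lay below 0 in 61 of 77 cases, with a median of −0.19 against −0.05 and −0.13. Above 0 lay 16 of them, where 46.3% of all rows did. UQCR10, a complex III subunit on chromosome 22, had −0.81 and NDUFB10, of complex I, had −0.79. ATP5A1, an ATP synthase subunit on chromosome 18, had 0.86. Glycolysis and gluconeogenesis genes had a median of −0.18 over 27, and only FBP1 among them passed the threshold. Cholesterol synthesis genes had −0.06 over 22, with INSIG1, the sterol-sensing retention protein, at −0.67 and the regulator SREBF2, on chromosome 22, at −0.61. Among lipid handling genes the phospholipid transfer protein PLTP had 1.21, −0.43 and 1.56.

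Housekeeping complexes lay close to 0. Cytosolic ribosomal proteins had a median of −0.02 over 78 genes, the proteasome −0.07 over 37 and the small RNA machinery, which processes and loads microRNAs, −0.09 over 24. The last had 0 genes past 1, with DICER1 at −0.16, DROSHA at −0.10 and AGO2 at 0.08. Hypoxia genes had −0.05 over 22, with the vasodilator peptide ADM at 1.09, and genes of the unfolded protein response 0.12 over 27, with ATF3 alone above 1.

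The only test across clones that the design allows combined both sets, with limma and the experimental set as a block. It called 0 of 9245 genes (0.0%) at a Benjamini-Hochberg adjusted p under 0.05, and 581 (6.28%) had an unadjusted p under 0.05. The smallest adjusted p was 0.74. Because set 2 values may stand beside other names, this count says little about the clones. The 4 genes with the smallest p in the limma fit had similar ratios under the same name in both sets. LINS had 0.83 in clone 55 and 0.99 in clone 61, a mean of 0.91 ± 0.15 (SE, n = 2, limma). This SE and those below come from the limma fit of all 4 groups and are not the spread of the 2 clones. C2orf76 had −1.21 and −0.74, a mean of −0.97 ± 0.17. CIB2, a calcium and integrin binding protein, had 0.76 and 0.91, a mean of 0.83 ± 0.15, and the purine synthesis enzyme ADSL, on chromosome 22, had −0.69 and −0.87, a mean of −0.78 ± 0.14. All had a limma adjusted p of 0.74. They were picked from all rows for their small p, which favours rows whose sets happen to be alike.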

How the data were processed

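The deposited values are log2 ratios that the authors took for every knockout clone over wild-type cells sequenced in its set, 6 columns in all. The submitters' processing notes name TopHat2 and GRCh37.p10. A version, and how reads were counted and scaled, are not given in the sources used here. Poly(A) RNA was isolated on oligo(dT) beads and sequenced, per the labels' protocols. There were 0 columns from other samples.

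The planned design took expression values as given. As the files hold ratios, wild types were entered as 0 and limma 3.58.1 (R 4.3.3) was fitted to all genes. The set, named in the labels and the unit within which every ratio was taken, served as a block. The fit was tested on simulated data. P-values measure only the spread between these samples. Other values are counts, medians and means (Python 3.11.15, pandas 2.3.3). Symbols were matched exactly. Of the rows, 9011 were matched to GENCODE 29 (GRCh38) by accession, 209 by symbol and 25 not at all, and the longest annotated 3′ UTR was searched. All coordinates are GRCh38.

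Named were the 12 lowest and 12 highest genes of set 1, up to 6 members past 1 of each of 35 lists or else the 2 furthest from 0, the 8 lowest and 8 highest within 0.3 of 0 in both single knockouts, the 6 highest with 8-base sites for both seeds, the published targets, identity and locus genes, and the 4 smallest limma p. Other members and block genes named were chosen after their values were seen. Members, lists and rules were chosen with earlier results of these data known.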

Additional observations from a re-analysis of the deposited data

How the results depend on the processing

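No filter on level was added here, and whether the deposited rows had already been selected on level is unknown. Of 1208 list entries 897 were measured. Limits of clone 55 are those of 1 clone against 1 wild type, with unknown depth. Its 141 high and 69 low genes became 34 and 26 at a log2 ratio of 1.5, 519 and 311 at 0.58, and 40 and 25 against the mean of both single knockouts in place of the wild type. Set 2 as listed had 224 genes above 1. Centring on the median, leaving out near-identical copies and leaving out chromosomes 13, 18 and 22 (chosen after their medians were seen) kept both counts within 1.5 times. The 9 genes past 1 in clone 55 alone became 20 when the single knockouts were allowed up to 0.5, and 21 in set 2 as listed. The shift of genes with any site, 0.0622, was 0.111 for 8-base sites, 0.031 within UTR length bins and 0.0111 in set 2. That of genes with both, 0.0925, was 0.221, 0.0557 and 0.0262, and 0.0828 without chromosomes 13, 18 and 22. The values for 8-base sites were not compared within UTR length bins. Of 32 lists with 5 or more members, 22 had a median over 0.1 from that of all rows, 12 against the single knockouts and 9 in set 2 (both chosen after seeing the data). Against the mean of both single knockouts, GATA2 (0.09), BASP1 (0.10), WDR20 (−0.43) and NT5E (−0.10) changed sign, 6 further named extremes fell within 1 and 14 did not.

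Without the replicate block, with the 6 ratios as independent values, limma called 0 genes, and 615 had an unadjusted p under 0.05. The set pairs the samples by construction of the ratios, and a fit on levels was not run. Leaving out 1 replicate each gave 0 to 2 calls, the 2 being WDR20 (adjusted p 0.0118, limma) and FAM86B2 (0.0486) without the wild type of set 2, when the ratios of set 2 enter only as differences among its clones and the lone wild type is assumed to vary like the other groups. The range of the smallest adjusted p over all alternatives was 0.0118 to 0.962.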
